A study of Mus musculus with 6 samples.

Results

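Esm1, Apln, Aplnr, Angpt2, Tek, Tie1, Cxcr4, Pdgfb and Adm are 9 genes of vessel sprouting, followed here in brain endothelial cells of mouse embryos that overexpress Axin1. They were picked by symbol from the 23827 genes of the deposited table. All 9 were found, each as a single RefSeq transcript, and all 9 were among the 12493 genes tested (mean of at least 1 RPKM over the 6 libraries, RPKM being a read count scaled by transcript length and library depth). Polyadenylated RNA was obtained by TRAP (translating ribosome affinity purification), which isolates the ribosomes of a chosen cell type with the RNA on them. The first group held 3 biological replicates with the modification R26 Axin1 IresLacZ overexpression, in which Axin1, a scaffold of the complex that degrades beta-catenin, is expressed from the Rosa26 locus with a lacZ reporter. The other group held 3 biological replicates labelled Wt. All 6 libraries came from E14.5 embryos (E, embryonic day) of the strain C57BL/6 x 129/Sv whose mothers had received tamoxifen at E12.5. The sources used here do not say what drives the ribosome tag or recombination, how many embryos made up a library, or whether wild-type embryos carry a recombinase.

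A growing vessel is led by a tip cell, which migrates towards vascular endothelial growth factor, and is followed by dividing stalk cells. Tip cells are known for high expression of Esm1 (endocan, a secreted proteoglycan), Apln (apelin), Angpt2 (angiopoietin 2), Cxcr4, Pdgfb and Adm (adrenomedullin). Apelin signals through the receptor encoded by Aplnr. Angiopoietins act on the receptor kinase Tie2, encoded by Tek, with which the related Tie1 forms complexes. In the developing brain these vessels depend on Wnt/beta-catenin signalling, which Axin1 restrains.

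RefSeq start-site windows (GRCm38.p6, 250 bases before to 50 bases after the annotated start) were matched by symbol for 6 of the 9 genes. The windows of the 3 genes that passed the test are shown because beta-catenin acts through TCF/LEF factors, whose core motif is CTTTG. Capitals mark CTTTG or its reverse complement CAAAG, and each window runs 5′ to 3′ on the gene's own strand. Esm1 lies on the plus strand (chr13:113209409-113209708), Apln on the minus strand (chrX:48034804-48035103) and Tie1 on the minus strand (chr4:118489800-118490099).
Esm1: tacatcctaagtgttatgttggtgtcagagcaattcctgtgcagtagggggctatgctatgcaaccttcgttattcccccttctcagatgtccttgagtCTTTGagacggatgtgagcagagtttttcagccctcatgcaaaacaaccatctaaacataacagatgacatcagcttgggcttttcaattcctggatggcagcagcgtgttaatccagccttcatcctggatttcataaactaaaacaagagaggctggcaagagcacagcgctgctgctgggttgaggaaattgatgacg
Apln: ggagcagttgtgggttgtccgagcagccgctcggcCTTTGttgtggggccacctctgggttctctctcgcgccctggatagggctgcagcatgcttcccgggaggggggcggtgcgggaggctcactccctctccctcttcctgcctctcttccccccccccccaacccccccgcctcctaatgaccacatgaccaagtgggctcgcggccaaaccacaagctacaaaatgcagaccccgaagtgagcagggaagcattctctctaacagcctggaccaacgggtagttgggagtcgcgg
Tie1: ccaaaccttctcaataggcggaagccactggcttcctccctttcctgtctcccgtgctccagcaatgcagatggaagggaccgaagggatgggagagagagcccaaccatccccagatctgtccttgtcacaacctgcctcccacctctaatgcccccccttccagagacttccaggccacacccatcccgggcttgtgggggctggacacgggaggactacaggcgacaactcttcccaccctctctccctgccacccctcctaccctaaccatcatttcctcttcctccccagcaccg
The Esm1 window held 1 CTTTG, at position -151 relative to the start, and the Apln window held 1, at -215. The Tie1, Cxcr4 and Adm windows held none on either strand, and the Tek window held 2. Of all 32851 windows in the table, 53.9% held the motif on either strand. ACGTG, a form of the hypoxia element core, was also searched on both strands. It was in none of the 6 windows and in 19.6% of all windows. Other forms of that core were not searched, so the windows may hold them. A match describes these letters and is not a measured binding site. The deposited values refer to the build mm9 and were not placed on these coordinates.

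Axin1 itself stood at 37.8, 38.1 and 37.4 RPKM in the 3 Axin1 libraries, against 13.6, 14.4 and 15.1 RPKM in the 3 wild-type libraries. The reads recovered from the table came to between 21076922 and 37040176 per Axin1 library, against 53524184 to 62507510 per wild-type library. Every count behind the 9 genes was between 411 and 77069 reads, so low counts did not limit any of them. Across all tested genes 22.8% passed at a limma adjusted p (Benjamini-Hochberg) under 0.05, 14.4% higher and 8.37% lower with Axin1 overexpression. After rescaling by the median of ratios 47.3% of the called genes were higher, against 63.2% as deposited. The column names carry 1 tag for every Axin1 library and another for every wild-type library. If the tags mark a run or batch, batch and genotype cannot be told apart. The defining endothelial markers were abundant, with Pecam1 at 386 RPKM in Axin1 libraries and 353 RPKM in wild type, and Cdh5 at 394 RPKM in Axin1 libraries and 370 RPKM in wild type (group means). Of the 12 endothelial markers tested, 2 were higher (Emcn and Ecscr) and 2 lower (Cldn5 and Esam), with a median log2 fold change of 0.02. Their summed level was 3271 to 3450 RPKM in Axin1 libraries, against 3569 to 3773 RPKM in wild type. Cldn5 weighed heavily on these sums, with group means of 748 RPKM in Axin1 libraries and 1263 RPKM in wild type. The sums therefore do not measure the endothelial share of a library. Transcripts of other cells were present: 7 of 12 neural progenitor markers were higher and 0 lower, with sums of 2241 to 2343 RPKM in Axin1 libraries against 1739 to 1907 RPKM in wild type. Vim and Nes made up most of these sums. Vim had group means of 1469 RPKM in Axin1 libraries and 1167 RPKM in wild type, and Nes 431 and 373 RPKM. Whether progenitors or endothelial cells gave the Vim and Nes RNA was not tested. Erythroid markers summed to 321 to 643 RPKM in Axin1 libraries, against 98.1 to 126 RPKM in wild type (4 of 5 tested higher, 1 lower, with Hba-a1 listed at 0 in all libraries). Neuron markers had 4 of 10 higher and 1 lower, with sums of 733 to 750 RPKM in Axin1 libraries, against 718 to 809 RPKM in wild type. Meningeal fibroblast markers had 2 of 10 lower and 0 higher, with sums of 214 RPKM in the lowest and highest Axin1 library, against 197 to 298 RPKM in wild type. The part of these cells in the results below was not tested.

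Esm1 rose with Axin1 overexpression, while Apln and Tie1 fell by small amounts and the other 6 genes did not pass. The 3 called genes of 9 stand beside a background of 22.8% called among all tested genes, so the count alone is no result about these genes. The median log2 fold change of the 9 genes was -0.08, and that of all tested genes was 0.04. The groups did not overlap for 3 of the 9 genes, against 43.9% of all tested genes. In the authors' deposited table, which rests on the same 6 libraries, the same 3 genes had an adjusted p under 0.05. The other 6 had adjusted p between 0.149 and 0.885.

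**Figure D1:**
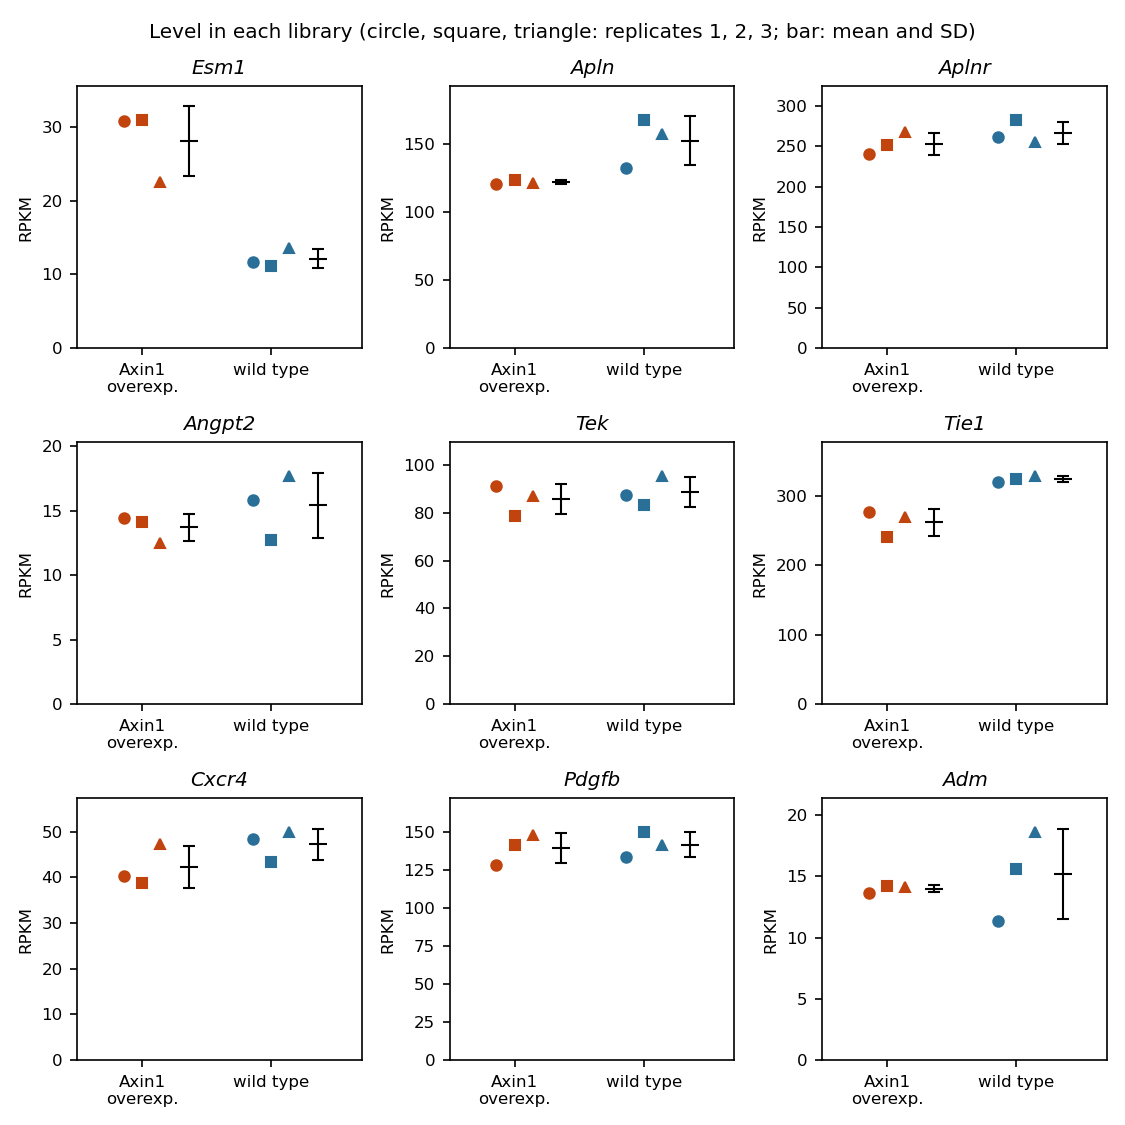
RPKM of each of the 9 genes in each library (y axis from 0), with Axin1 overexpression left of wild type and the mean with its SD beside the points (n = 3 each). Esm1 sits between 22.6 and 31.0 RPKM in Axin1 libraries, above all wild-type libraries, and Apln and Tie1 sit below wild type in every Axin1 library.

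Esm1, which encodes the secreted proteoglycan endocan, had 30.9, 31.0 and 22.6 RPKM in Axin1 libraries, against 11.6, 11.2 and 13.6 RPKM in wild-type libraries. Every Axin1 library lay above every wild-type library, and Axin1 replicate 3, the shallowest library, was the lowest of the Axin1 group with 1004 reads for the gene. The means were 28.2 ± 4.80 RPKM with Axin1 overexpression and 12.1 ± 1.29 RPKM in wild type (SD, n = 3 each), a ratio of 2.32. On the log2(RPKM + 1) scale the fold change was 1.14 (SE 0.13, 95% interval 0.85 to 1.43, limma adjusted p = 0.000929). The call held under all 18 alternatives, with log2 fold changes between 0.78 and 1.29. In ribosome-bound bulk RNA, a larger share of Esm1-expressing cells, more Esm1 RNA per cell and more of it on ribosomes cannot be told apart. The change moved Esm1 within the order of the tested genes. Its level was at the 76.4th percentile in the median Axin1 library, against the 48.5th in the median wild-type library.

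Apln, which encodes the peptide ligand apelin, had 121, 123 and 121 RPKM in Axin1 libraries, against 132, 167 and 157 RPKM in wild-type libraries. All 3 Axin1 libraries lay below all wild-type libraries, and the wild-type libraries were the more spread. The means were 122 ± 1.33 RPKM with Axin1 overexpression and 152 ± 18.0 RPKM in wild type (SD, n = 3 each), a log2 fold change of -0.31 (SE 0.09, 95% interval -0.51 to -0.11, limma adjusted p = 0.0351). The call was lost under 8 of 18 alternatives, with adjusted p between 0.0115 and 0.0956 over all 18, and the losing ones included leaving out any library but wild-type replicate 1. The log2 fold change stayed between -0.41 and -0.24 throughout. Aplnr, which encodes the apelin receptor, had 240, 251 and 267 RPKM in Axin1 libraries, against 261, 282 and 256 RPKM in wild-type libraries, and the groups overlapped. It did not pass (log2 fold change -0.07, 95% interval -0.23 to 0.08, adjusted p = 0.453). The receptor transcript exceeded the ligand transcript per length in every library: the Apln to Aplnr ratio of RPKM values was 0.503, 0.490 and 0.453 in Axin1 libraries, against 0.507, 0.592 and 0.614 in wild-type libraries. The second apelin receptor ligand, Apela, lay below the filter at a mean of 1.05 RPKM in Axin1 libraries and 0.748 RPKM in wild type (listed under the older symbol Gm10664).

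Of the Tie receptor genes, Tie1 fell and Tek did not pass. Tie1 had 277, 240 and 270 RPKM in Axin1 libraries, against 320, 325 and 329 RPKM in wild-type libraries. The groups did not overlap, and the wild-type libraries lay close together. The means were 262 ± 19.5 RPKM with Axin1 overexpression and 325 ± 4.16 RPKM in wild type (SD, n = 3 each), a log2 fold change of -0.31 (SE 0.07, 95% interval -0.47 to -0.15, limma adjusted p = 0.0171). A loess adjustment of each library for GC share and transcript length ended the call and moved the log2 fold change to -0.19 (adjusted p = 0.0941), and leaving out Axin1 replicate 2 ended it too (-0.25, adjusted p = 0.069). Over all alternatives the adjusted p of Tie1 ran between 0.00809 and 0.103. Tek, which encodes the angiopoietin receptor Tie2, had 91.1, 78.9 and 87.0 RPKM in Axin1 libraries, against 87.6, 83.1 and 95.3 RPKM in wild-type libraries. These groups overlapped (log2 fold change -0.05, 95% interval -0.23 to 0.13, adjusted p = 0.676). Per length, Tie1 exceeded Tek in every library. The Tie1 to Tek ratio of RPKM values was 3.04, 3.05 and 3.10 in Axin1 libraries, against 3.66, 3.91 and 3.45 in wild-type libraries, with no overlap. The difference in this ratio was not tested.

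Angpt2, which encodes the angiopoietin made by sprouting endothelium, had 14.4, 14.1 and 12.498 RPKM in Axin1 libraries, against 15.8, 12.7 and 17.7 RPKM in wild-type libraries. The Axin1 values lay mostly within the wild-type range. The gene did not pass (log2 fold change -0.15, 95% interval -0.41 to 0.11, adjusted p = 0.352). Angpt1, the angiopoietin made mainly by cells around vessels, was near the filter, at 1.36 ± 0.206 RPKM with Axin1 overexpression and 1.16 ± 0.197 RPKM in wild type (SD, n = 3 each). It did not pass either (log2 fold change 0.13, adjusted p = 0.317). Among the other genes listed with the angiopoietins and Tie receptors, Ptprb, the endothelial phosphatase that acts on Tie2, had a log2 fold change of -0.17 (adjusted p = 0.149). Foxo1, a transcription factor restrained by Tie2 signalling, had -0.05 (adjusted p = 0.57). Of the 6 tested, 0 were higher and 2 lower by limma, beside 14.4% higher and 8.37% lower among all tested genes. The lower genes were the adaptor gene Grb14 (log2 fold change -0.45, adjusted p = 0.0402) and Svep1, a large matrix protein, at 0.963 ± 0.266 RPKM with Axin1 overexpression and 1.54 ± 0.212 RPKM in wild type (SD, n = 3 each; log2 fold change -0.37, adjusted p = 0.0346). Svep1 passed the filter only through its wild-type level. The calls of Grb14 and Svep1 were lost under 7 of 18 and 8 of 17 alternatives. With a pseudocount of 10 the values of Grb14 and Svep1 were -0.27 and -0.07, and with voom on the recovered reads -0.51 and -0.68.

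**Figure D2:**
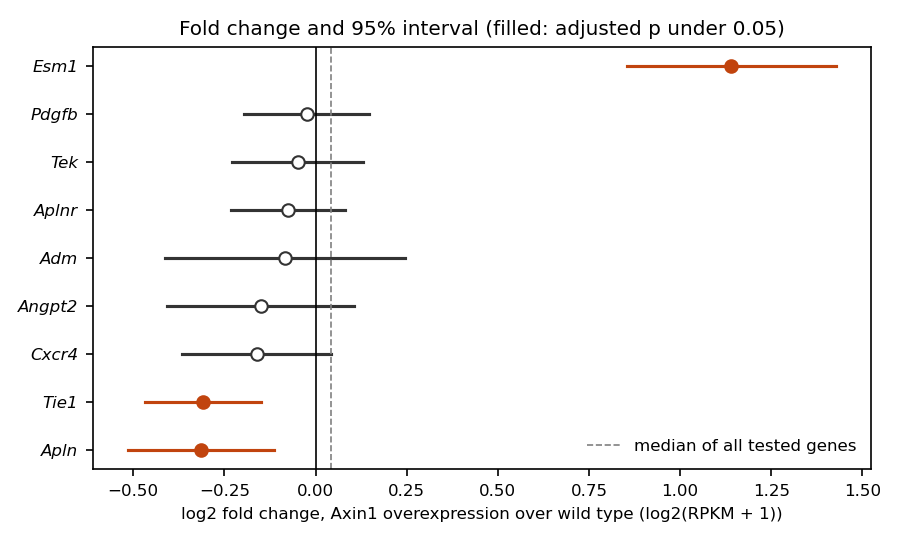
Log2 fold change of Axin1 overexpression over wild type (x axis, log2(RPKM + 1) scale) with its 95% interval for each of the 9 genes, filled where the limma adjusted p is under 0.05. The Esm1 interval runs from 0.85 to 1.43, those of Apln and Tie1 lie below 0, and the other 6 include 0.

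Cxcr4, the chemokine receptor that guides tip cells, had 40.4, 38.9 and 47.4 RPKM in Axin1 libraries, against 48.5, 43.4 and 49.9 RPKM in wild-type libraries. The groups overlapped through Axin1 replicate 3 and wild-type replicate 2. The gene did not pass (log2 fold change -0.16, 95% interval -0.37 to 0.04, adjusted p = 0.215), but did after the GC and length adjustment (-0.31, adjusted p = 0.0366, with a range over all alternatives of 0.0232 to 0.509). Microglia also express Cxcr4, and their markers summed to 36.7 to 65.2 RPKM in Axin1 libraries and 36.7 to 39.6 RPKM in wild type (1 of 9 tested higher, 0 lower, and none of the 10 listed at 0 in every library). Their part in the Cxcr4 level was not tested. Cxcl12, which encodes the ligand of Cxcr4, fell, with 60.2, 62.2 and 63.1 RPKM in Axin1 libraries, against 71.2, 74.4 and 73.6 RPKM in wild-type libraries. The groups did not overlap (log2 fold change -0.24, SE 0.06, limma adjusted p = 0.0214), and leaving out any of 4 libraries (wild-type replicate 3 or any Axin1 library) ended the call. Of the 10 meningeal fibroblast markers 2 were lower and 0 higher, with a median log2 fold change of -0.19. Their part in the Cxcl12 value was not tested. Ackr3, the scavenger receptor of the same ligand, had 10.4 ± 0.679 RPKM with Axin1 overexpression and 8.56 ± 1.05 RPKM in wild type (SD, n = 3 each; listed as Cxcr7; log2 fold change 0.25, adjusted p = 0.0698).

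Pdgfb, the ligand by which sprouting endothelium recruits pericytes, was the member with the smallest difference. It had 129, 142 and 148 RPKM in Axin1 libraries, against 134, 150 and 142 RPKM in wild-type libraries, and the groups overlapped (log2 fold change -0.02, 95% interval -0.20 to 0.15, adjusted p = 0.837). Its receptor gene Pdgfrb, expressed by pericytes, was low and lower with Axin1 overexpression, at 3.24 ± 0.14 RPKM, against 4.04 ± 0.304 RPKM in wild type (SD, n = 3 each; log2 fold change -0.25, limma adjusted p = 0.0303). That call was lost under 8 of 17 alternatives, 4 of which left out a library, and a pseudocount of 10 gave -0.09, while voom on the recovered reads gave -0.31. Pdgfrb is itself 1 of the 11 pericyte and smooth muscle markers, of which 4 of 9 tested were lower and 0 higher. These markers summed to 31.9 to 45.1 RPKM in Axin1 libraries, against 44.4 to 52.4 RPKM in wild type, and their part in the Pdgfrb value was not tested. Of the other PDGF genes, Pdgfrl averaged 0.737 RPKM in Axin1 libraries and 1.36 RPKM in wild type. It thus passed the filter only through its wild-type level. Pdgfc was higher (log2 fold change 0.24, limma adjusted p = 0.0224) and Pdgfrl lower (-0.44, limma adjusted p = 0.00537). Both calls were lost with a pseudocount of 10 (0.08 for Pdgfc and -0.08 for Pdgfrl, against 0.33 and -0.85 with voom on the recovered reads, where both passed), and that of Pdgfc also when wild-type replicate 3, Axin1 replicate 2 or Axin1 replicate 3 was left out. Pdgfa, Pdgfd and Pdgfra did not pass (0.08, -0.06 and -0.33, adjusted p = 0.519, 0.708 and 0.062).

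Adm, which encodes the vasoactive peptide adrenomedullin, did not pass, whereas genes of its receptor differed between the groups. Adm had 13.7, 14.2 and 14.1 RPKM in Axin1 libraries, against 11.3, 15.6 and 18.6 RPKM in wild-type libraries. The Axin1 libraries lay inside the wild-type range. The log2 fold change was -0.08, with a 95% interval of -0.41 to 0.25 that was the widest of the 9 genes (adjusted p = 0.702). The receptor is the seven-helix protein encoded by Calcrl, joined to an accessory protein of the RAMP family, of which Ramp2 and Ramp3 give adrenomedullin receptors. Calcrl rose, with 32.8, 30.9 and 34.2 RPKM in Axin1 libraries, against 18.9, 22.7 and 22.8 RPKM in wild-type libraries. Every Axin1 library lay above every wild-type library (log2 fold change 0.59, SE 0.08, limma adjusted p = 0.0033). Ramp3 rose as well, with 10.1, 8.34 and 9.20 RPKM in Axin1 libraries, against 3.54, 3.06 and 3.04 RPKM in wild-type libraries. The groups stood far apart on 220 to 415 reads per Axin1 library and 185 to 249 reads per wild-type library. The ratio of means was 2.86 and the log2 fold change 1.27 (SE 0.08, limma adjusted p = 7.84e-05), or 0.54 with a pseudocount of 10 and 1.52 with voom on the recovered reads. Ramp2 had 719, 727 and 802 RPKM in Axin1 libraries, against 951, 886 and 797 RPKM in wild-type libraries, and the groups overlapped through 1 library each. It did not pass by limma (log2 fold change -0.23, adjusted p = 0.0779), while the authors' deposited table gives it an adjusted p of 0.0279. Ramp2 remained far the more abundant per length: the Ramp3 to Ramp2 ratio of RPKM values was 0.014, 0.0115 and 0.0115 in Axin1 libraries, against 0.00372, 0.00346 and 0.00382 in wild-type libraries. In GENCODE M21 the Ramp2 exons share 1103 bases with Vps25 on the same strand and the Ramp3 exons share 101 bases with Gm11978 on the opposite strand. Reads in the Ramp2 overlap could belong to either gene with any kit. As the kit used is not stranded, the same holds for the Ramp3 overlap. The Ramp1, Calca and Adm2 genes lay below the filter. Of the 3 genes tested 2 were higher and 0 lower, beside 14.4% higher and 8.37% lower among all tested genes.

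**Figure D3:**
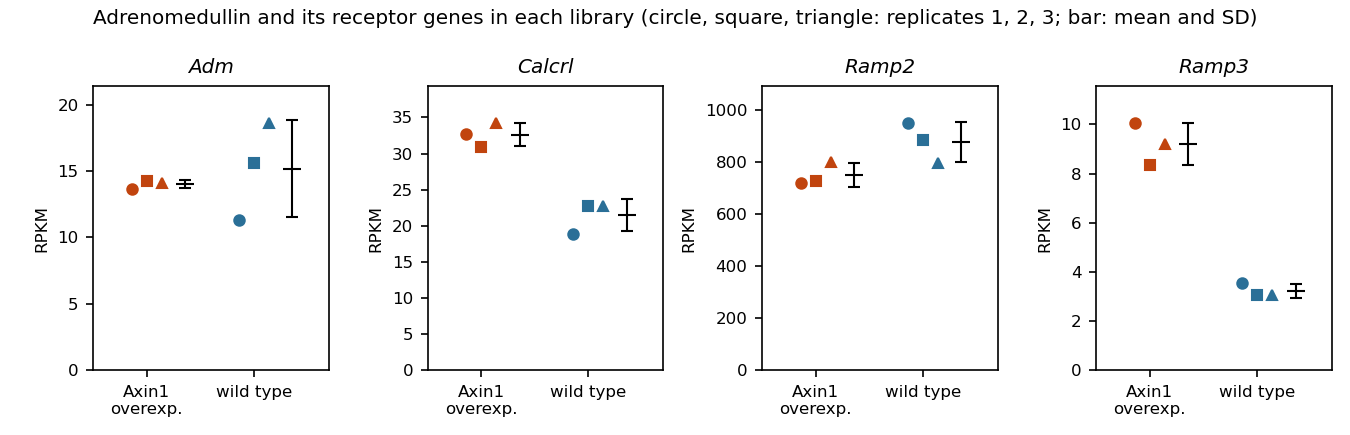
RPKM of Adm, Calcrl, Ramp2 and Ramp3 in each library (y axes from 0), with Axin1 overexpression left of wild type and the mean with its SD (n = 3 each). Calcrl and Ramp3 are higher in all 3 Axin1 libraries than in any wild-type library, while the groups overlap for Adm and Ramp2.

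By level, the 9 genes spread over more than a factor of 10 in each library, and per length the receptor genes Tie1 and Aplnr stood highest. Tie1 averaged 262 RPKM and Aplnr 253 RPKM in Axin1 libraries, where their ranges overlapped, against 325 and 266 RPKM in wild type, where they did not. Pdgfb and Apln came next, at 140 and 122 RPKM in Axin1 libraries without overlap, and at 142 and 152 RPKM in wild-type libraries with overlap. Tek and Cxcr4 followed in both groups. At the low end the order differed between the groups. Esm1 lay above Adm and Angpt2 without overlap in the Axin1 group, whereas in wild type Angpt2, Adm and Esm1 averaged 15.4, 15.2 and 12.1 RPKM, each overlapping its neighbour in the order. The Esm1 to Apln ratio of RPKM values, which sets these 2 tip cell genes against each other within a library, was 0.256, 0.252 and 0.187 in Axin1 libraries, against 0.088, 0.0668 and 0.0866 in wild-type libraries. It joins a gene called higher with a gene called lower, so it adds nothing to those calls. Its difference was not tested.

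Of 20 other tested genes known from tip cells, 2 were higher and 4 lower, beside 14.4% higher and 8.37% lower among all tested genes, so the counts alone are no result about the group. They had a median log2 fold change of -0.14, against 0.04 for all tested genes. Ednrb, the endothelin receptor B gene, had 12.9, 13.2 and 10.5 RPKM in Axin1 libraries, against 7.39, 5.79 and 6.96 RPKM in wild-type libraries. As for Esm1, Axin1 replicate 3 was the lowest of its group yet above every wild-type library (log2 fold change 0.78, SE 0.11, limma adjusted p = 0.00276, or 0.41 with a pseudocount of 10 and 0.89 with voom on the recovered reads). The part of other cells, among them neural progenitors, in the Ednrb value was not tested. Igfbp3, which encodes a carrier of insulin-like growth factors, had 221, 195 and 220 RPKM in Axin1 libraries, against 146, 140 and 133 RPKM in wild-type libraries (log2 fold change 0.60, limma adjusted p = 0.00137). Both genes were thus higher in every Axin1 library. Plod1, a collagen lysyl hydroxylase gene, had 56.3, 49.3 and 54.3 RPKM in Axin1 libraries, against 72.7, 67.4 and 75.0 RPKM in wild-type libraries (log2 fold change -0.42, limma adjusted p = 0.00661). Lcp2, an adaptor gene best known from blood cells, fell by 0.51 on the log2 scale (limma adjusted p = 0.00231, or -0.20 with a pseudocount of 10 and -0.59 with voom on the recovered reads). These 4 calls held under every alternative in which the genes were tested. Nid2, a basement membrane nidogen, had 292, 186 and 237 RPKM in Axin1 libraries, against 356, 336 and 333 RPKM in wild-type libraries. That call and the call of Flt4, a receptor of vascular endothelial growth factor C, were each lost when any of 5 libraries was left out and after the GC and length adjustment, which moved Flt4 to -0.13. Kdr, the main receptor of vascular endothelial growth factor, and Dll4, the tip cell Notch ligand, did not pass (log2 fold changes -0.16 and -0.21, adjusted p = 0.134 and 0.109). Of 10 stalk cell, Notch and VEGF genes, 2 were higher and 0 lower by limma. They were Dll1 (log2 fold change 0.33, adjusted p = 0.02) and Vegfa (0.32, adjusted p = 0.0357), which neural progenitors also express, and the part of the higher progenitor markers in these values was not tested. Leaving out Axin1 replicate 1 or 2 ended both calls, and leaving out wild-type replicate 3 ended that of Dll1. The Vegfa call was lost under 11 of 18 alternatives, among them the replicate block (adjusted p = 0.0566), the GC and length adjustment (0.0549), either rescaling and leaving out wild-type replicate 1 or 2, with adjusted p between 0.0205 and 0.121 over all 18. In all, 7 of the 48 partner genes tested were higher and 9 lower, beside the same 14.4% higher and 8.37% lower among all tested genes. These counts alone, and those of each shorter list, are no result about the genes. Pdgfc, Vegfa and Svep1, called by limma, had adjusted p of 0.2, 0.0712 and 0.0528 in the authors' deposited table. Ramp2, as given above, passed only there.

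**Figure D4:**
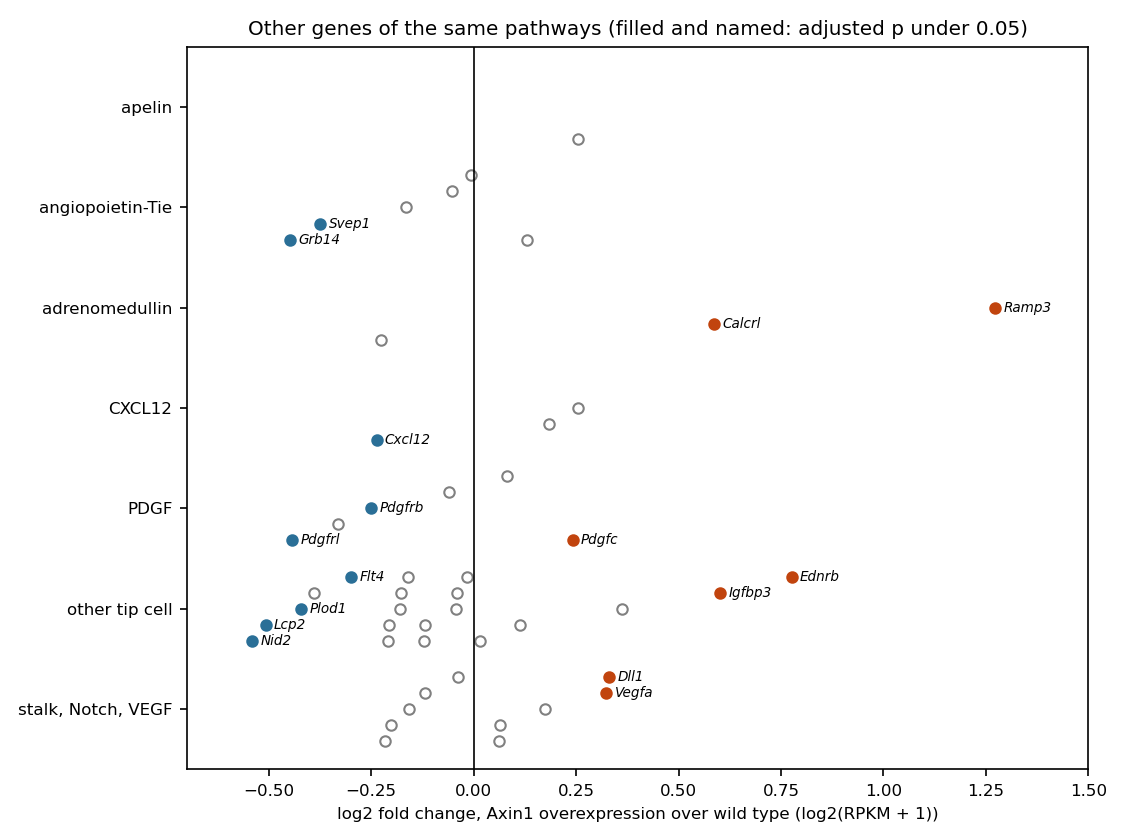
Log2 fold change of Axin1 overexpression over wild type (x axis, log2(RPKM + 1) scale) for the other tested genes of each pathway, filled and named where the limma adjusted p is under 0.05, with vertical spacing only to separate points. Ramp3 at 1.27 and Ednrb at 0.78 lie farthest to the right and Nid2 at -0.54 farthest to the left.

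The tested genes whose 6-library profiles lay closest to that of Esm1, by Euclidean distance of log2(RPKM + 1) values set to a wild-type mean of 0, were Slc16a3, a lactate transporter gene (distance 0.289), the chaperone gene Hspa8 (0.297) and the imprinted gene Peg10 (0.348). Their means were 4.58, 28.9 and 120 RPKM in Axin1 libraries, against 1.78, 12.48 and 58.7 RPKM in wild-type libraries. The profiles closest to Apln were those of Arhgef12, Srgap1 and Elfn2 (distances 0.059, 0.0764 and 0.0864). Those closest to Tie1 were Stc2, Slc2a8 and Pcdh8 (0.0668, 0.0708 and 0.0931). Each comparison rests on 6 libraries in 2 groups, so that any gene with a like group difference lies near.

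**Figure D5:**
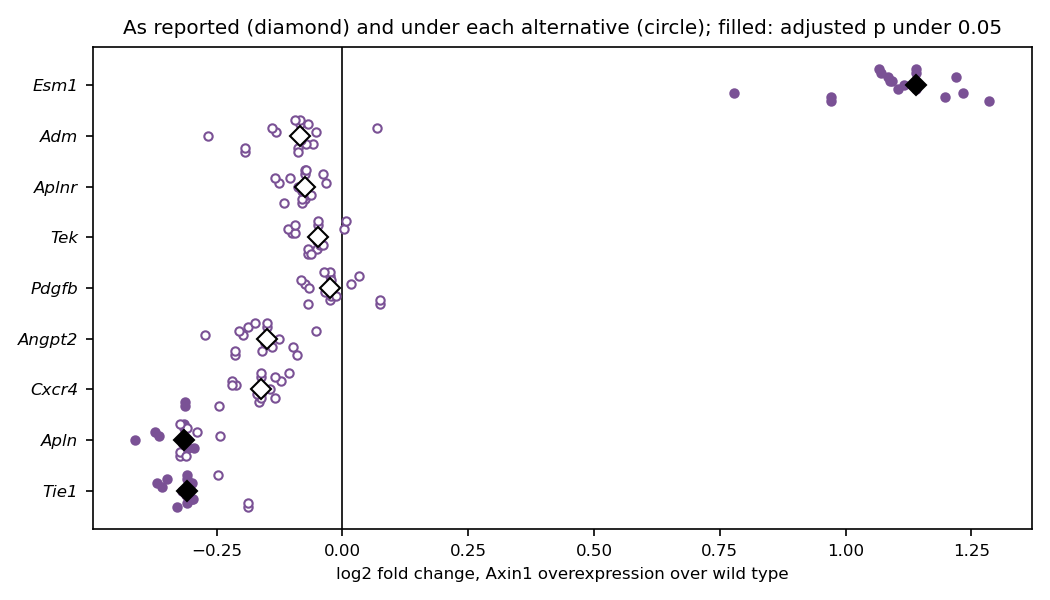
Log2 fold change of each of the 9 genes as reported (diamonds) and under each of 18 alternatives (circles), filled where the limma adjusted p is under 0.05. Esm1 is filled throughout, Apln and Tie1 are filled in part, and Cxcr4 is filled under 2 alternatives, both with the GC and length adjustment.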

How the data were processed

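The authors deposited a single table with an RPKM value per gene and library, by symbol and RefSeq accession. No header names this unit, which was settled from the values. Per the file headers, the table also holds mean normalized counts per group (a signal divided by size factors), a fold (ratio), a p-value and an adjusted p. From the values, the fold has wild type over Axin1 overexpression. Bowtie, DESeq and the build mm9 are named in the submitters' processing notes, while the sources used here give neither the counter nor its filters. RNA came from TRAP and the TruSeq RNA Sample prep kit v2, per the labels' protocols.

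Whole reads were solved for from the RPKM values together with the authors' group means. Within 0.05 reads, 99.99% of values above 0 were whole for genes with a single transcript and 83.6% for all genes. A count of 0 would allow up to 3 reads, for counting error only. Replicates differed by more than sampling noise (chi-square per degree of freedom 8.04 to 48.1), so all 6 were kept as separate libraries. The labels call the 3 libraries per group biological replicates.

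Genes with a mean over 6 libraries of 1 RPKM or more (12493) were fitted with limma 3.58.1 under R 4.3.3, using log2(RPKM + 1) and group as the only factor. This scale understates the change of low genes. Values are Axin1 overexpression minus wild type, two-sided, with Benjamini-Hochberg adjustment over all tested genes and a threshold of 0.05. Tables and plots used Python 3.11.15, pandas 2.3.3, numpy 2.4.6 and matplotlib 3.10.9. The step was tested on simulated data whose changes were all larger than those of Apln and Tie1. That test says nothing about calls of small changes. The members, gene lists and alternatives were chosen with earlier results of these data known. Named genes were the 9 members, Axin1, every partner gene with an adjusted p under 0.05, the ligand and receptor genes of each pathway and the 3 nearest profiles of each called member. Alternatives were pseudocounts of 0.1 and 10, no filter or at least 5 RPKM, other scalings and variance models, a replicate block, a loess adjustment for GC share and transcript length (span 0.5, values for 99.7% of tested genes), voom on recovered reads and leaving out each library. Thinning to 21076922 reads was added after seeing the data.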

Additional observations from a re-analysis of the deposited data

How the results depend on the processing

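Esm1 kept its direction and its call under all 18 alternatives, as did Calcrl, Ramp3, Igfbp3, Ednrb and Plod1. Lcp2 did so under all 17 that tested it. Without 1 library at a time the called members numbered 1 to 3, the partner genes 8 to 14 and all called genes 1054 to 2318. The lowest of each came without Axin1 replicate 2, and without Axin1 replicate 3 there were 1402 genes and 10 partner genes. Without wild-type replicate 3 there were 9 partner genes. Over these settings the log2 fold change of Pdgfb lay between -0.069 and 0.033, that of Tek between -0.095 and 0.0082 and that of Adm between -0.27 and 0.068, none of them past the threshold. With the GC and length adjustment, 1825 genes were called (1596 with the replicate block as well) and Pdgfb turned to 0.074 in both. With a pseudocount of 10, 10 partner genes were called, against 16. The cause was not tested. Whether the replicate numbers pair the libraries was not settled, and the main fit left them unpaired. Same-numbered libraries correlated weakly, at 0.0785, 0.127 and 0.0593, in their deviations across genes. Each library correlated best with its own number. With the replicate block 3 members, 17 partner genes and 2675 genes in all were called, against 3, 16 and 2846. With median-of-ratios or upper-quartile scaling the median log2 fold change over all genes was -0.0025 or -0.01, against 0.04. Depth limits the low genes: Pdgfrl rests on 21 to 137 reads per library.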
